A study of Mus musculus with 9 samples.

Results

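The 81 protein-coding genes of the deposited table that are named for cytosolic ribosomal proteins were described in the hypothalamus of mouse pups. They were picked by a rule on annotation and name, as genes called Rpl or Rps with a number, Rplp0, Rplp1, Rplp2 or Rpsa. The rule was set with earlier results of these data known. They make up 81 of the 54532 genes in the table, 49 named for the large subunit and 32 for the small subunit. Names that do not follow this pattern lie outside it although they encode ribosomal proteins, among them Fau, a fusion with a ubiquitin-like protein, and Rack1, a scaffold of the small subunit. Rps4l is annotated as a transcribed processed pseudogene in the table and was not a member.

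The 9 libraries, 3 in each group, were made from whole-hypothalamus RNA of male wild-type ICR pups, an outbred stock, at postnatal day 21. HA pups were nursed by dams fed a high-fat, high-sucrose diet (HFHS, 45% of energy from fat) and were injected daily with 4-PBA, a chemical chaperone, on postnatal days 4 to 16. HP pups had dams on the same HFHS diet and were given PBS on the same days. LP pups had dams on a low-fat diet (LFD, 10% of energy from fat) and were given PBS. All dams began their diet at 5 weeks of age, 5 weeks before mating, and kept it through gestation and lactation, with litters set to 10 pups. HP against LP therefore sets the maternal HFHS diet against the LFD in PBS pups, HA against HP sets 4-PBA against PBS under the HFHS diet, and HA against LP sets both differences together. No label ties a library to a litter of its own, so a p-value here speaks only of how these libraries vary. The sample titles carry a further code of unstated meaning: LP replicate 1 has one code, LP replicates 2 and 3 share another, and HA and HP share a further pair that no LP library carries. Its part in a difference from LP and the part of the diet cannot be told apart.

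A ribosome has a small subunit, which binds the mRNA and reads its codons, and a large subunit, which joins the amino acids. Most ribosomal proteins are present once per ribosome, and their mRNAs in mammals carry a run of pyrimidines at the very start that ties their translation to mTORC1 signalling. Ribosomal protein genes have also left many processed pseudogenes in mammalian genomes, copies of the spliced mRNA that can be nearly identical to the parent gene, so that short reads can be assigned to either.

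The comparison of Rps7, a small-subunit protein, with its pseudogene Gm6472 turns on a few bases. Rps7 lies at chr12:28630854-28635953 on the minus strand and Gm6472 at chrX:152909505-152910155, also on the minus strand, in the deposited coordinates. Over the 651 bases of Gm6472, the GENCODE M21 transcripts (GRCm38) differ by 4 substitutions and no gap. Counted from 1 at the first base of the Rps7 transcript, these are G86A in the 5′ UTR and T133G, G155A and G230T in the coding sequence. The 25-base windows below show each position, with the base that differs in capitals. A read that lies within the 651 aligned bases and covers none of these positions matches both genes.
Rps7, position 86: tctttctaagccGgcgatccgtcag
Gm6472, position 86: tctttctaagccAgcgatccgtcag
Rps7, position 133: gcgccaagatcgTgaagcccaatgg
Gm6472, position 133: gcgccaagatcgGgaagcccaatgg
Rps7, position 155: tggcgagaagccGgacgagttcgag
Gm6472, position 155: tggcgagaagccAgacgagttcgag
Rps7, position 230: ggcgcagctgcgGgaactcaacatc
Gm6472, position 230: ggcgcagctgcgTgaactcaacatc

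As a whole, the ribosomal protein genes held a steady share of every library. Library totals ran from 18226924 to 21823961 counts, and the 81 genes took between 1.12% and 1.23% of them. Their CPM (counts relative to the TMM-scaled library total) summed to 11908, 11829 and 12160 in HA, to 11706, 11985 and 11269 in HP, and to 11557, 11805 and 11906 in LP. The groups averaged 11970 ± 173 in HA, 11650 ± 361 in HP and 11760 ± 179 in LP (SD, n = 3 each), and each pair of groups overlapped. The large-subunit genes summed to 7007 ± 68.2 CPM in HA, 6871 ± 207 in HP and 6893 ± 71.7 in LP, and the small-subunit genes to 4958 ± 108 in HA, 4782 ± 156 in HP and 4864 ± 108 in LP. In bulk tissue, a difference in the number of cells of a type and a difference in RNA per cell cannot be told apart.

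**Figure D1:**
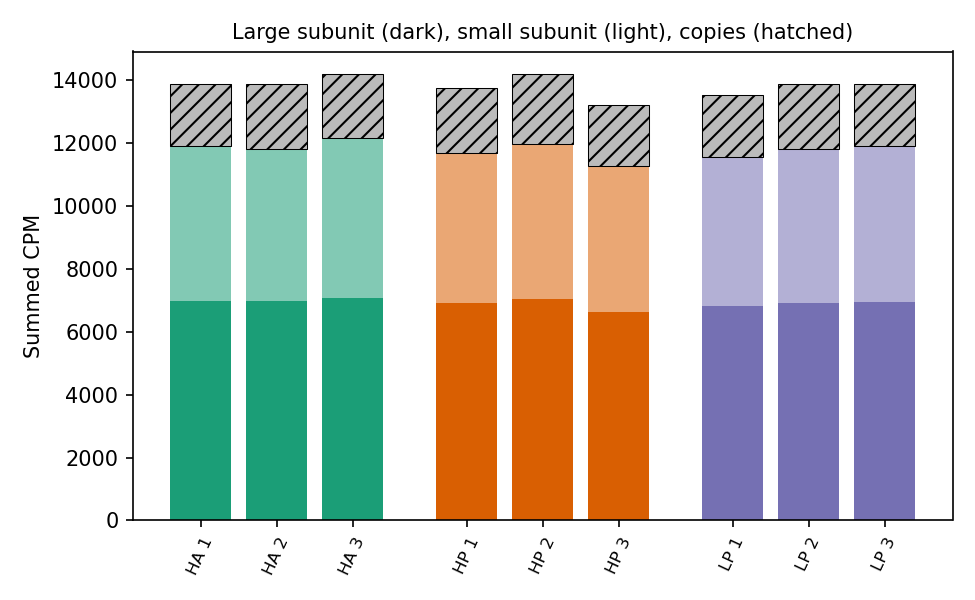
Summed CPM of ribosomal protein genes in each of the 9 libraries, as stacked bars: large-subunit genes (dark), small-subunit genes (light) and their matched copies (grey, hatched), with HA, HP and LP from left to right. The members' part ends between 11269 and 12160 CPM in all libraries and the groups overlap.

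Libraries differed in other ways that touch these results. Summed meningeal fibroblast markers (9 genes, none at 0 throughout) stood at 1089 CPM in HA replicate 3 and at 516 CPM in the third LP library, while the remaining 7 had 72.2 to 149 CPM. Summed striatal neuron markers were 479 and 624 CPM in LP replicates 1 and 2, and 320 to 341 CPM elsewhere. Summed oligodendrocyte markers (6 genes) were 19182, 13936 and 11339 CPM in HA, 19171, 19993 and 16717 CPM in HP, and 12909, 20129 and 14609 CPM in LP, so that HA replicates 2 and 3 lay below all HP libraries. The part of these differences in the results was not tested beyond leaving the libraries out. Markers of hypothalamic neurons (12 genes, the labelled tissue) were present in every library, at a summed 1049 to 1391 CPM.

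Levels between genes were compared in the FPKM values deposited by the authors, which are scaled to gene length. The median member had a mean of 79.6 FPKM over the 9 libraries. The 5 highest were Rplp1 (651 ± 44.3), a protein of the flexible stalk that recruits elongation factors, Rps15 (376 ± 12.7), Rpl36 (347 ± 14.1), Rps3a1 (309 ± 12.6) and Rpl19 (246 ± 6.02; SD over 9 libraries). The rest of the stalk stood lower, with Rplp0, its base, at 132 ± 8.79 FPKM and Rplp2 at 60.8 ± 2.07 FPKM. These ranks depend on the deposited gene lengths, which are 383 to 1022 bases for the 5 highest. Rplp1 has 499 bases and Rplp2 2072, against coding lengths of 342 and 345 bases. In CPM, Rplp1 averaged 340 in HA, 310 in HP and 329 in LP, and Rplp2 averaged 131, 126 and 123. Rpl4 stood above Rplp1 in CPM, at 445 in HA, 455 in HP and 450 in LP. Rps6, the small-subunit protein phosphorylated downstream of mTORC1, had 168 ± 5.81 FPKM, Rpsa, known also as the laminin receptor precursor, had 125 ± 2.09 FPKM, and the X-linked Rps4x had 137 ± 6.74 FPKM. Rpl5 and Rpl11, which bind 5S rRNA and can hold back Mdm2, had 42.8 ± 2.57 and 84.9 ± 2.92 FPKM.

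Of the members, 13 had a mean under 10 FPKM. Of these, 3 are variants known for tissue-restricted expression. Rpl10l was listed at 0 counts in all 9 libraries, Rpl39l reached at most 0.190 CPM, and Rpl3l, known from striated muscle, lay between 0.107 and 0.557 CPM; these 3 did not pass the filter on low counts, so 78 of the 81 members were tested. The other 10 genes encode core proteins. Of these, Rps2 had 0.426 ± 0.124 FPKM, Rpl29 1.10 ± 0.356, Rps10 1.20 ± 0.124 and Rpl34 1.36 ± 0.170 FPKM (SD over 9 libraries).

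For all of these low core genes but Rpl13a (7.63 FPKM), more counts stood on copies elsewhere in the genome than on the gene. Pseudogenes that match a member's transcript at 95% identity or more over at least 80% of their length numbered 596, for 77 of the 81 members, and 18 further copies carried another annotation. Rps2 averaged 15.4 counts per library while its 28 matched pseudogenes averaged 5695 in sum, of which Rps2-ps13 alone held 5611. Rpl26 averaged 48.0 counts against 4430 on its 6 pseudogenes, Rpl34 70.3 against 2377, and Rps10 54.4 against 1021. In all, matched copies held more counts than the gene for 10 members and over 10% of the summed count for 30 members.

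**Figure D2:**
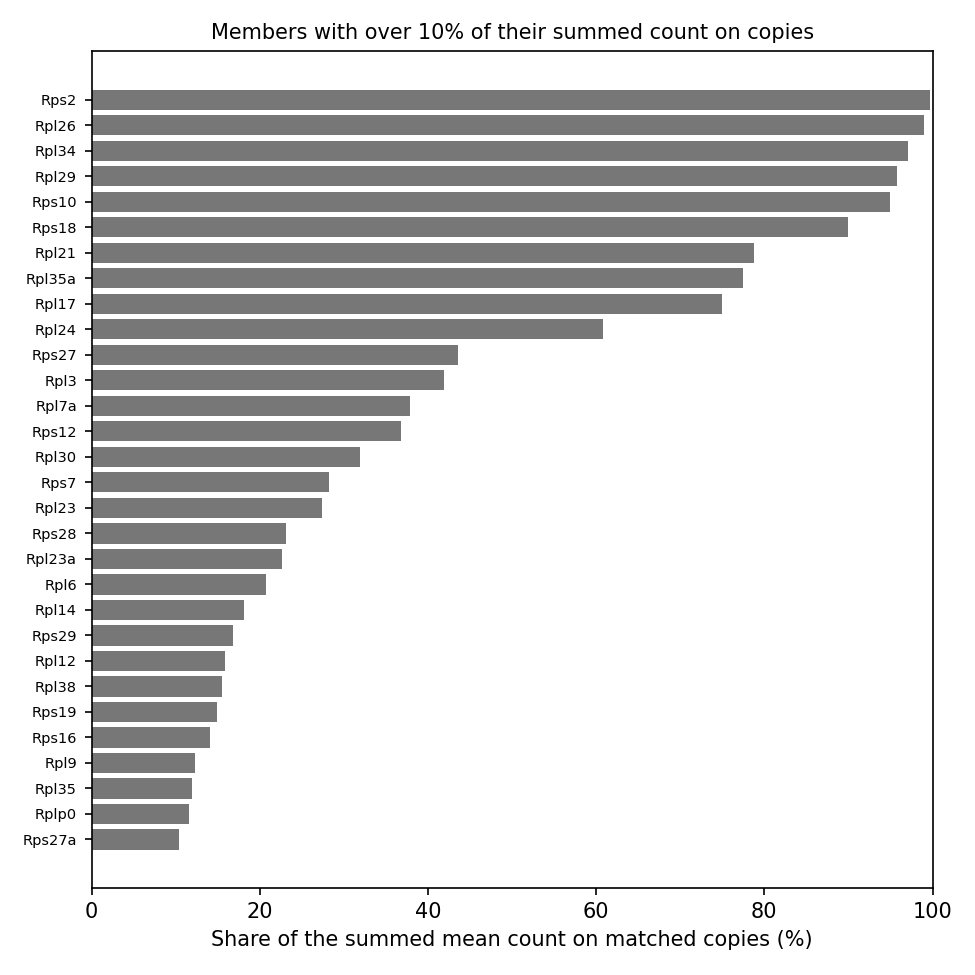
Share of the summed mean count of gene and matched copies that lay on the copies (x axis, %), for the 30 members above 10%, 1 bar per gene. Rps2, Rpl26, Rpl34, Rpl29 and Rps10 have nearly all of it on copies, and Rps7 28.2%.

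Among the tested members, the median coefficient of variation over the 9 libraries was 5.06%, against 9.60% for all 17546 genes tested. Those genes were not matched to the members by count, and low counts raise the coefficient. Summing each member with its copies gave a median of 4.43%, and the coefficient was lower with the copies than without for 52 of the 78 genes. Before summing, 5 members varied more than 2-fold between their highest and lowest library. After summing, 1 did, Rps27a.

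The maternal HFHS diet (HP against LP) gave no call among the 78 tested members in edgeR's quasi-likelihood test with Benjamini-Hochberg adjustment, in which 0.0114% of all genes were called. At an unadjusted p under 0.05, 0 members were higher and 3 were lower in HP, 3.85% of members beside 6.12% of all genes, of which 3.12% were higher and 3% lower. The median log2 fold change of members was -0.0039, beside -0.0024 for all genes. In 4 members the HP and LP libraries did not overlap, all lower in HP (5.13%, beside 11.8% of all genes, 5.93% higher and 5.83% lower). The 3 members with an unadjusted p under 0.05 were Rps7, Rps27a and Rps13, all of the small subunit.

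Rps7 had 147, 141 and 139 CPM in HP, against 171, 181 and 169 CPM in LP. The HP libraries all lay below the LP libraries. The log2 fold change was -0.29 ± 0.040 (SE), with an adjusted p of 0.118 over all genes in edgeR. In DESeq2 the same change had an adjusted p of 3.74e-05, and in edgeR without LP replicate 3 it was -0.31 with an adjusted p of 0.0456, so the call depends on the tool and on that library; it was not made in limma-voom.

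Gm6472 went the other way. It had 70.3, 76.5 and 67.1 CPM in HP, against 45.2, 50.1 and 47.8 CPM in LP, with no overlap. It rose in HP by 0.58 ± 0.064 on the log2 scale (SE, edgeR adjusted p = 0.0340). That call was lost when any of HA replicates 1 or 2, HP replicates 1 or 2, or LP replicates 1 or 2 was left out (adjusted p 0.0545, 0.106, 0.243, 0.189, 0.114 and 0.108 in that order), while the log2 fold change stayed between 0.53 and 0.62 when any 1 library was left out.

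The sum of Rps7 and Gm6472 was 217, 218 and 206 CPM in HP, against 216, 231 and 217 CPM in LP, and the groups overlapped. The log2 fold change of the sum was -0.053 ± 0.040 (SE, edgeR adjusted p = 0.884). Gm6472 held 32.4%, 35.1% and 32.6% of the sum in HP, against 20.9%, 21.7% and 22.1% in LP. The share of the pair that was counted on the pseudogene thus differed between the groups without overlap, while the totals overlapped.

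Between HA and HP the pair differed in the opposite direction. Rps7 had 166, 169 and 166 CPM in HA, against 147, 141 and 139 CPM in HP. Gm6472 had 44.5, 47.5 and 48.3 CPM in HA, against 70.3, 76.5 and 67.1 CPM in HP, and fell by 0.61 on the log2 scale (SE 0.065, edgeR adjusted p = 0.0224). This call was lost without HA replicate 1 or 2, HP replicate 1 or 2, or LP replicate 3 (adjusted p 0.163, 0.176, 0.165, 0.129 and 0.0557 in that order). The log2 fold change of Rps7 was 0.23 ± 0.040 with an adjusted p of 0.566 in edgeR and 0.0190 in DESeq2. The sum was 210, 217 and 214 CPM in HA, against 217, 218 and 206 CPM in HP, and its log2 fold change was 0.0039 ± 0.040 (SE, edgeR adjusted p = 0.992). The HP libraries enter both this comparison and HP against LP, so the opposite signs are not independent of each other. In HA against LP, the log2 fold changes were -0.057 for Rps7 (edgeR adjusted p = 0.833), -0.028 for Gm6472 (adjusted p = 0.953) and -0.049 for the sum (adjusted p = 0.848).

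**Figure D3:**
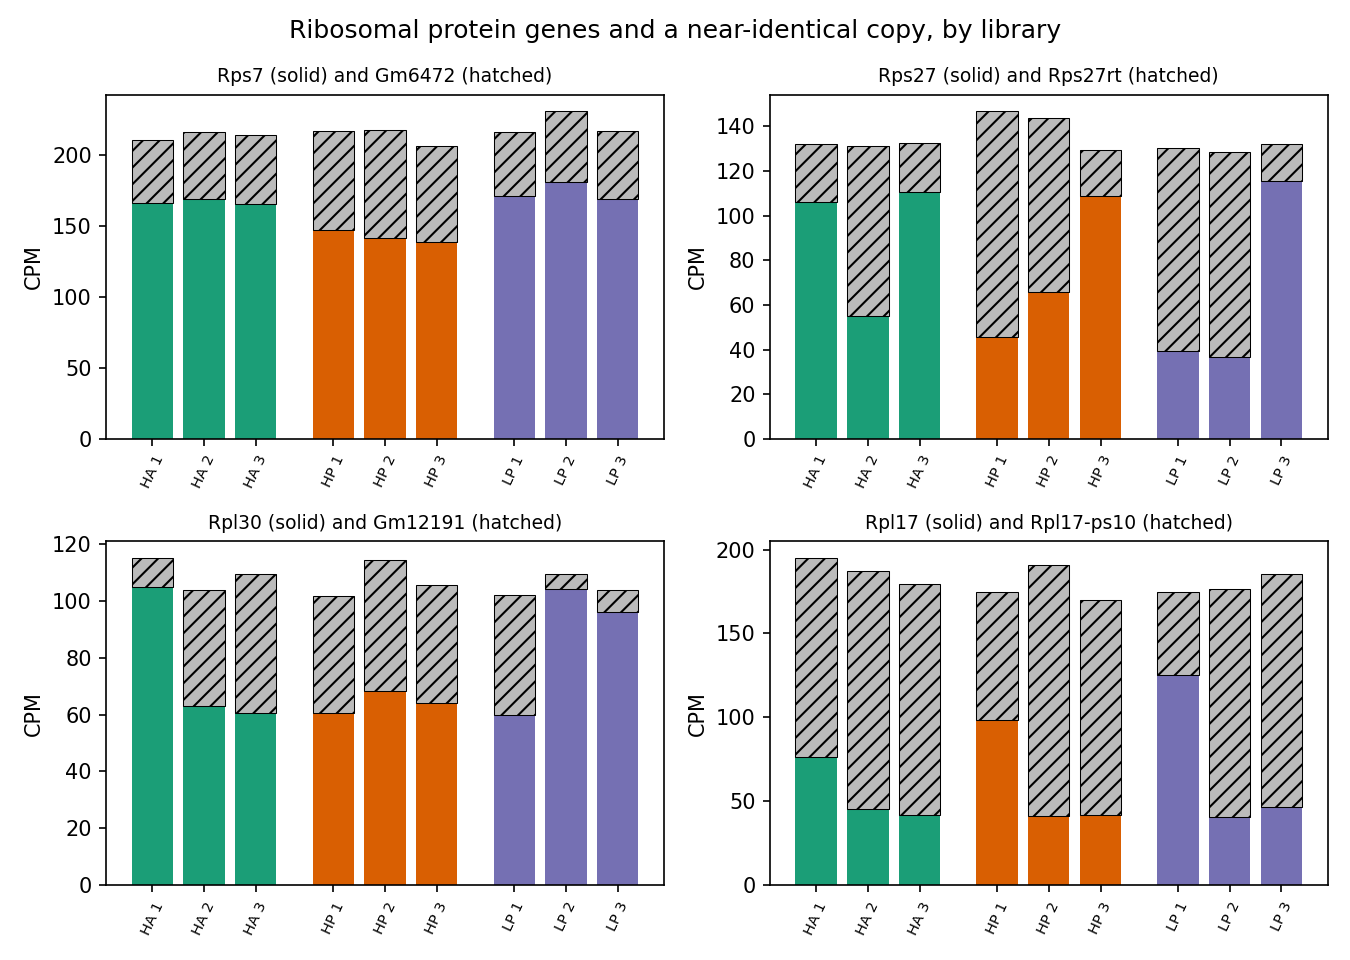
CPM of 4 ribosomal protein genes (solid, coloured by group) and of a near-identical copy stacked on each (grey, hatched), in 9 libraries with HA, HP and LP from left to right. The split between gene and copy differs between libraries, by group for Rps7 and Gm6472 and across groups for the other pairs, while the tops of the bars lie close together.

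The other 3 pairs in that plot split between gene and copy by library rather than by group. Rps27, a zinc-finger protein of the small subunit, and Rps27rt, a protein-coding intronless copy at chr9:114982366-114982739, had no substitution over 341 aligned bases. Rps27 had 106, 55.2 and 111 CPM in HA, 45.6, 65.9 and 109 CPM in HP, and 39.1, 36.8 and 115 CPM in LP. Rps27rt had 25.8, 75.9 and 22.0 CPM in HA, 101, 77.8 and 20.8 CPM in HP, and 91.1, 91.7 and 16.8 CPM in LP. Low Rps27rt and high Rps27 came together in HA replicates 1 and 3, HP replicate 3 and LP replicate 3. The coefficient of variation was 44.4% for Rps27, 61.5% for Rps27rt and 4.85% for their sum.

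Rpl30, a small protein at the joint between the subunits, differs from the processed pseudogene Gm12191 (chr11:49678710-49679057) by 1 substitution, G584A, counted from the first base of the Rpl30 transcript. The windows below show it with the differing base in capitals.
Rpl30, position 584: gctgggctacaaGcagactctgaag
Gm12191, position 584: gctgggctacaaAcagactctgaag
Rpl30 had 105, 62.9 and 60.7 CPM in HA, 60.7, 68.4 and 64.1 CPM in HP, and 59.8, 104 and 96.0 CPM in LP. Gm12191 was low in the 3 libraries where Rpl30 was high, at 10.4 CPM in HA replicate 1, 5.07 in LP replicate 2 and 8.06 in LP replicate 3, and between 41.1 and 49.1 CPM elsewhere. Gm12191 lies within Cnot6 on the same strand, so its reads and those of Cnot6 cannot be told apart by position. The coefficient of variation was 26.2% for Rpl30 and 4.73% for the sum. In HP against LP, Rpl30 had a log2 fold change of -0.43 ± 0.23 (SE, edgeR adjusted p = 0.837), and 0.0020 once its matched pseudogenes were added.

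Rpl17, which sits near the exit of the nascent-chain tunnel, and Rpl17-ps10, which differs from it by 4 substitutions over 555 bases, behaved alike. Rpl17 had 76.4, 45.2 and 41.5 CPM in HA, 98.3, 40.9 and 41.6 CPM in HP, and 125, 40.3 and 46.3 CPM in LP. It was high in replicate 1 of each group, where Rpl17-ps10 was lowest, at 119, 76.6 and 49.5 CPM in HA, HP and LP. The coefficient of variation was 50.6% for Rpl17 and 4.65% for the sum.

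Rps27a, a fusion of ubiquitin and a small-subunit protein, varied in another way. It had 68.6, 57.8 and 60.8 CPM in HA, 60.0, 52.5 and 56.1 CPM in HP, and 57.0, 133 and 120 CPM in LP. LP replicates 2 and 3, which carry the same title code, stood about as far above LP replicate 1 as above the other groups. The sum with its 10 matched pseudogenes kept this pattern, at 65.2, 143 and 128 CPM in LP, and a coefficient of variation of 36.6%. The log2 fold change in HP against LP was -0.88 ± 0.24 (SE, edgeR adjusted p = 0.678), and without LP replicate 1 it was -1.17 (adjusted p = 0.00187). In HA against LP it was -0.73 ± 0.24 (adjusted p = 0.737), and without LP replicate 1 it was -1.03 (adjusted p = 0.0117). With no filter on low counts the adjusted p was 0.00578 in HP against LP and 0.0440 in HA against LP.

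The remaining members with the smallest p in HP against LP differed little. Rps13 had 81.4, 90.2 and 79.3 CPM in HP, against 90.7, 91.1 and 95.6 CPM in LP (log2 fold change -0.14 ± 0.061, SE, edgeR adjusted p = 0.810). Rps20 had a log2 fold change of -0.11, Rps14 of -0.10, Rpl22 of 0.081 and Rpl23a of 0.11, with edgeR adjusted p-values of 0.816 to 0.881.

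In HA against HP no member was called either (edgeR, with 0.0114% of all genes called), yet most estimates lay above 0. The median log2 fold change of the 78 tested members was 0.053, beside 0.0027 for all genes, and 58 members, 74.4%, had a higher estimate in HA, beside 50.9% of all genes. At an unadjusted p under 0.05, 10 members were higher and 1 was lower in HA, together 14.1% of members beside 5.42% of all genes, of which 3% were higher and 2.42% lower. In 13 members every HA library lay above every HP library and in 5 every one lay below, together 23.1% beside 11.8% of all genes (5.92% higher and 5.89% lower). With offsets that remove each library's trend with gene length, the median was 0.017 and 6 members had an unadjusted p under 0.05. Leaving out HA replicate 1 or HP replicate 3 also left 6 such members. Over all leave-outs of 1 library the count lay between 6 and 14. The share of all genes under that p was not counted in these settings, so the changes cannot be read as particular to the members. In HP replicate 3 the median member lay 0.074 below its mean over libraries on the log2 scale, the lowest value of the 9 libraries.

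In HA against LP no member was called (edgeR, with 0% of all genes called), and 1142 genes had an unadjusted p under 0.05. The members' median log2 fold change was 0.029, beside 0.0057 for all genes, and 53 of 78 estimates were higher in HA, beside 51.9% of all genes. At an unadjusted p under 0.05, 12 members were higher and 3 lower, together 19.2% beside 6.51% of all genes, of which 3.06% were higher and 3.45% lower. Groups did not overlap for 20 members, 18 higher and 2 lower in HA, which is 25.6% beside 10.9% of all genes (5.4% higher and 5.51% lower). With the length offsets, the members' median was 0.0060 and 10 members had an unadjusted p under 0.05. The 15 members with an unadjusted p under 0.05 became 8 without HA replicate 1, 7 without LP replicate 1 and 8 without both HA replicate 3 and LP replicate 3. With any 1 library left out the count lay between 7 and 15. For these settings and the offsets, the share of all genes under that p was not counted. The fall therefore cannot be read as a result about the members. The HA libraries enter both this comparison and HA against HP.

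**Figure D4:**
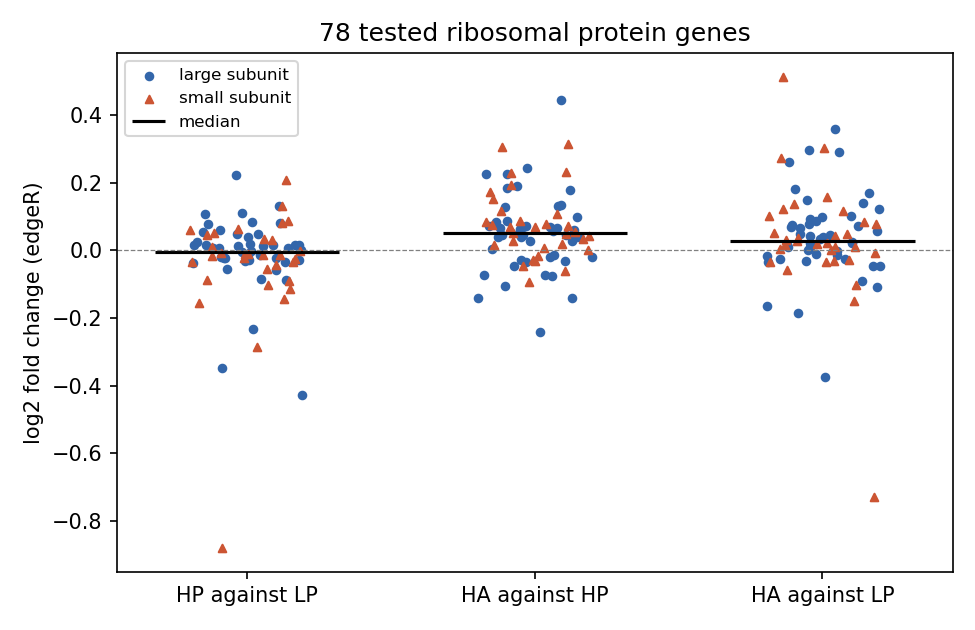
edgeR log2 fold change (y axis) of the 78 tested members in each comparison, large-subunit genes as blue dots and small-subunit genes as orange triangles, with the median as a black line. The medians are -0.0039 in HP against LP, 0.053 in HA against HP and 0.029 in HA against LP, and the low point in both comparisons with LP is Rps27a.

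The members with the smallest p in the HA comparisons were mostly short proteins. Rpl37, a zinc-binding protein of the large subunit, had 142, 136 and 136 CPM in HA, 128, 131 and 120 CPM in HP, and 119, 121 and 124 CPM in LP. All HA libraries lay above all others. Its log2 fold change was 0.13 ± 0.043 in HA against HP and 0.18 ± 0.043 in HA against LP (SE, edgeR adjusted p 0.840 and 0.645). Rpl35, which lies by the tunnel exit where nascent chains emerge, had 85.4, 84.3 and 85.2 CPM in HA, 74.7, 78.1 and 70.6 CPM in HP, and 72.5, 75.7 and 78.4 CPM in LP, again with every HA library highest (log2 fold changes 0.19 ± 0.049 and 0.17 ± 0.049 against HP and LP). Its gene overlaps Arpc5l on the opposite strand, and the labels do not describe the libraries as stranded, so reads of the overlap cannot be told apart.

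Rpl38, which in mouse embryos is known for its role in translating Hox mRNAs, had 68.6, 58.0 and 62.5 CPM in HA, 63.6, 52.6 and 45.8 CPM in HP, and 47.8, 47.4 and 52.5 CPM in LP. HA stood above LP without overlap and overlapped HP (log2 fold changes 0.36 ± 0.11 against LP and 0.23 ± 0.11 against HP). Rps29 had 91.2, 86.5 and 94.9 CPM in HA, 88.9, 77.2 and 72.0 CPM in HP, and 70.6, 73.5 and 81.3 CPM in LP, with the same order. Rps28 had 53.5, 47.4 and 50.2 CPM in HA, 47.2, 39.6 and 34.7 CPM in HP, and 36.0, 43.2 and 43.3 CPM in LP. Rpl41, the shortest of the proteins, had 299, 313 and 303 CPM in HA, 284, 286 and 266 CPM in HP, and 260, 277 and 290 CPM in LP. In both Rps28 and Rpl41 each HA library lay above all 6 others. Rps28 overlaps Kank3 on the opposite strand, so reads of that overlap cannot be told apart either.

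Rpl37a had 141, 133 and 133 CPM in HA, 114, 122 and 111 CPM in HP, and 117, 121 and 130 CPM in LP, with a log2 fold change of 0.23 ± 0.053 in HA against HP (SE, edgeR adjusted p = 0.840). Rpl31 averaged 178 ± 4.17 CPM in HA, 166 ± 2.13 in HP and 166 ± 0.217 in LP (SD, n = 3 each). Its gene overlaps Tbc1d8 on the opposite strand. Rps12 averaged 74.0 ± 1.25 CPM in HA and 65.7 ± 4.78 in HP, and Rps19, mutated in human Diamond-Blackfan anaemia, averaged 136 ± 4.70 CPM in HA and 122 ± 7.42 in LP. Rps12 and Rpl31 did not overlap between HA and HP, nor Rps19 and Rpl31 between HA and LP. Copies held 36.8% of the summed count of Rps12, 23.1% of Rps28, 16.9% of Rps29, 15.5% of Rpl38, 14.9% of Rps19 and 11.9% of Rpl35. With all copies added, the log2 fold change in HA against HP was 0.058 for Rps12 (0.17 without them), 0.30 for Rps28 and 0.15 for Rpl35. In HA against LP it was then 0.29 for Rps29, 0.34 for Rpl38 and 0.056 for Rps19. The sum of Rps19 and its copies overlapped between HA and LP. Lower estimates were fewer. Rpl35a, with 330 coding bases, averaged 6.88 ± 0.539 CPM in HA and 8.14 ± 0.303 in HP, without overlap. Copies held 77.5% of its summed count, and with them it averaged 34.5 ± 1.80 CPM in HA and 33.9 ± 0.748 in HP. Rpl12 averaged 121 ± 3.36 CPM in HA, 130 ± 1.92 in HP and 128 ± 4.22 in LP, and Rpl3, at the peptidyl transferase centre, averaged 267 ± 9.38 CPM in HA and 288 ± 11.4 in LP. Both overlap a gene on the opposite strand, Rpl12 with Lrsam1 and Rpl3 with Syngr1. Copies held 41.9% of the summed count of Rpl3. Summed with them, Rpl3 averaged 467 ± 7.93 CPM in HA and 489 ± 18.3 in LP, and the groups overlapped.

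Other named members had the following values. Rps6 averaged 266 ± 2.60 CPM in HA, 274 ± 10.4 in HP and 262 ± 10.2 in LP. Rpsa averaged 400 ± 6.38 CPM in HA, 394 ± 5.68 in HP and 402 ± 9.20 in LP. Rpl11 averaged 237 ± 0.667 CPM in HA, 227 ± 10.2 in HP and 225 ± 4.13 in LP, and HA lay above LP without overlap. Rpl10, Rpl5, Rps4x and Rplp0 had log2 fold changes between -0.013 and 0.068 in the 3 comparisons, and the p53-inducible Rps27l had 0.053 in HP against LP, 0.069 in HA against HP and 0.12 in HA against LP, all with edgeR adjusted p of at least 0.834.

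Grouped by coding length, with limits chosen after the values were seen, the 25 tested members under 400 coding bases had a median log2 fold change of 0.086 in HA against HP and 0.10 in HA against LP, with 21 of 25 higher in HA in each. The 661 other protein-coding genes of that length had medians of 0.015 and -0.0020. The 39 members of 400 to under 700 coding bases had medians of 0.056 and 0.022, and the 14 of 700 or more had -0.015 and 0.0022. In HP against LP the 25 short members had a median of 0.016. The summed level of the 25 was 3134, 3045 and 3091 CPM in HA, 2936, 2936 and 2799 CPM in HP, and 2755, 2954 and 3000 CPM in LP. Each HA library lay above each of the others. Across the 78 genes, Spearman's rho between coding length and log2 fold change was -0.492 in HA against HP, -0.443 in HA against LP and -0.141 in HP against LP. The genes share the 9 libraries, so the values describe these libraries only. The offsets above used the deposited gene length, which can differ widely from coding length (1168 against 138 bases for Rpl41). The part of transcript or coding length in the members' difference was not itself tested.

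**Figure D5:**
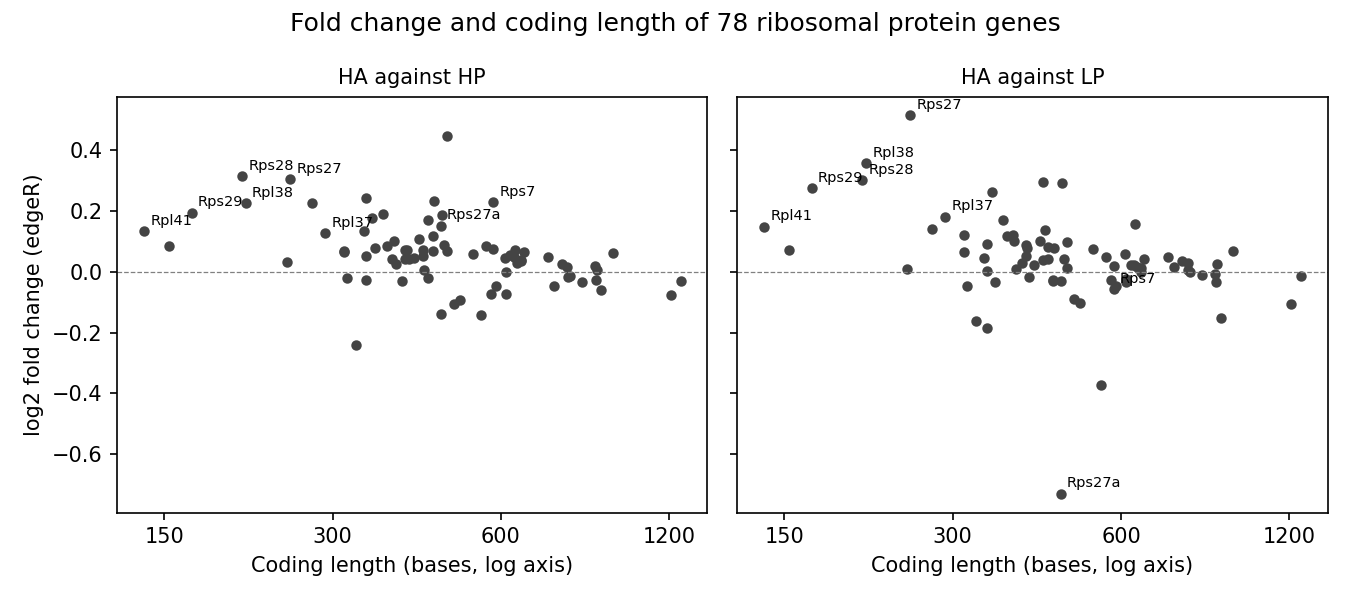
edgeR log2 fold change (y axis) against coding length in bases (x axis, log scale) for the 78 tested members, with HA against HP on the left and HA against LP on the right, 1 point per gene and some genes named. Points under 400 bases lie mostly above 0, with medians of 0.086 and 0.10, and those of 700 or more lie around 0.

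Promoter windows of the members hold sequence features known for this gene family. RefSeq windows (GRCm38.p6, 250 bases before to 50 after the start) were matched for 61 of the 81 members. A run of at least 5 pyrimidines from a C at the start stood in 13 of the 61 (21.3%), beside 3.01% of 27025 genes. Only a run that begins exactly at the annotated start was counted, so these shares depend on how precise that start is. The sequence CTTCCGG, on either strand, stood in 26 (42.6%, beside 9.93%), TCTCGCGA, on either strand, in 11 (18.0%, beside 1.13%), and AAGATGG, on either strand, in 9 (14.8%, beside 7.28%). TATAAA between 20 and 45 bases before the start stood in 0 of the 61, beside 2.42% of genes. The lines below give 50 bases before to 10 after the start for Rps7 and for 3 of the short members whose group mean was highest in HA. Capitals mark the pyrimidine run at the start and any CTTCCGG or TCTCGCGA on either strand.
Rpl35, chr2:39005122-39005181, minus strand: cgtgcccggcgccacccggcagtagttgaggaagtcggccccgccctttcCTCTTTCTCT
Rpl38, chr11:114668530-114668589, plus strand: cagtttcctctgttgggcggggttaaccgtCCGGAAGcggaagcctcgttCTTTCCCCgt
Rps28, chr17:33824553-33824612, minus strand: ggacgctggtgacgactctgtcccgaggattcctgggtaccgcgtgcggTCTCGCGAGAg
Rps7, chr12:28635944-28636003, minus strand: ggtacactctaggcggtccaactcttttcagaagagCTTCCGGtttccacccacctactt
A match is a description of the letters and says nothing of whether a factor binds. The pyrimidine run is seen at the start of Rpl35 and Rpl38 and is under the limit of 5 at the annotated starts of Rps28 and Rps7. At the annotated starts of Rpl37, Rpl37a and Rpl41, whose means were also highest in HA, the run length was 0. Whether the run goes with the level in HA was not tested.

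Genes that work with the ribosome gave no call in any of the 3 comparisons (edgeR, adjusted over all genes). Of 62 ribosome biogenesis and RNA polymerase I genes, 2 were higher and 2 lower in HP than in LP at an unadjusted p under 0.05, 2 higher and 1 lower in HA than in HP, and 0 in HA against LP. These were 6.45%, 4.84% and 0% of the list, beside 6.12%, 5.42% and 6.51% of all genes. Polr1d, a subunit shared by RNA polymerases I and III, had 25.9, 22.0 and 19.4 CPM in HA, 17.5, 17.7 and 18.0 CPM in HP, and 21.6, 26.6 and 26.2 CPM in LP. HP lay below both other groups without overlap (log2 fold change -0.48 ± 0.12 against LP, SE, edgeR adjusted p = 0.534, and 0.34 ± 0.12 in HA against HP, adjusted p = 0.840). Nhp2, of the H/ACA snoRNPs that guide pseudouridylation of rRNA, averaged 17.8 ± 0.564 CPM in HA, 15.0 ± 1.27 in HP and 17.7 ± 0.642 in LP. Nvl, an ATPase of large-subunit assembly, averaged 38.9 ± 1.78 CPM in HA, 44.3 ± 3.85 in HP and 36.7 ± 2.33 in LP.

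Of 11 elongation factors, 38 initiation factors, 24 ribosome quality control and nascent chain factors, 20 genes listed for mTORC1 signalling and 8 snoRNA host genes, between 0 and 2 had an unadjusted p under 0.05 in each comparison. That is at most 9.09% of a list, beside 6.12% of all genes in HP against LP, 5.42% in HA against HP and 6.51% in HA against LP. The lists' medians lay between -0.052 and 0.093. The lowest of these was that of the quality control and nascent chain factors in HA against HP, where 20 of 24 estimates were lower in HA, beside 8609 of all 17546 genes, among them Srp9, a subunit of the signal recognition particle, at 38.7 ± 0.584 CPM in HA and 52.2 ± 13.8 CPM in HP. Btf3l4 averaged 37.4 ± 1.98 CPM in HA, 38.7 ± 4.52 in HP and 45.9 ± 3.75 in LP. In the mTORC1 list the smallest p belonged to Pdk1, at 42.6 ± 8.31 CPM in HA, 49.5 ± 0.953 in HP and 34.2 ± 2.08 in LP. The symbol stands for a pyruvate dehydrogenase kinase, an enzyme of glucose oxidation and not of mTORC1 signalling.

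Of 77 tested mitochondrial ribosomal protein genes, which build the separate ribosome of that organelle, 0 had an unadjusted p under 0.05 in HP against LP and in HA against HP, and 2 (2.60%) in HA against LP. Of all genes, 6.12%, 5.42% and 6.51% did in these comparisons, in the same order. The mitochondrial list held fewer in each. The median log2 fold changes of the mitochondrial list were 0.0058 in HP against LP, -0.0010 in HA against HP and 0.014 in HA against LP. Of the cytosolic ribosomal proteins outside the name rule, Fau averaged 185 ± 14.0 CPM in HA, 180 ± 7.88 in HP and 179 ± 3.90 in LP, Rack1 186 ± 9.52 in HA, 180 ± 9.93 in HP and 180 ± 3.54 in LP, and Rpl22l1, a paralog of Rpl22, 43.8 ± 0.663 in HA, 47.0 ± 0.960 in HP and 45.8 ± 3.15 in LP (SD, n = 3 each).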

How the data were processed

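RNA was taken from whole hypothalamus and libraries were made from 3 µg of total RNA, per the labels' protocols. The authors deposited raw counts per gene and, in a separate table, FPKM values scaled to gene length and depth. Per the submitters' processing notes the tools were featureCounts 1.5.0-p3, HISAT2 2.0.5 and DESeq2 1.16.1, and the mouse build was mm9; the deposited coordinates of 79 of the 81 members equal those of GENCODE M21 (GRCm38). How reads that match several places were counted is not given in the sources used here.

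Counts were tested in R 4.3.3 with edgeR 4.0.16 (TMM, filterByExpr, glmQLFit and glmQLFTest, two-sided, all 9 libraries in 1 fit, Benjamini-Hochberg over 17546 genes, threshold 0.05). CPM use TMM-scaled totals. The method was tested on simulated data. Alternatives were DESeq2 1.42.0, limma-voom (limma 3.58.1), other scalings, no filter, fewer libraries, length offsets and summed copies; the sum over all copies was added after seeing the data. Copies were matched with BLAST+ 2.17.0. No p-value is given for the gene list or its sums. An exact permutation test of 3 against 3 cannot go below p = 0.1. FPKM were used for levels between genes only, with no test. Counting depth limits precision, and the counts carry no molecular identifiers.

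The members and lists were chosen with earlier results of these data known. Named genes were those called, the 8 members of smallest p per comparison, the 5 of highest and of lowest mean FPKM, a set of always-named ribosomal proteins, and, of each list, those called or of smallest p; of these the text gives a part. Rps27rt, Gm12191, Rpl17-ps10 and Rpl17 were added after their values were seen, as were Rps29, Rpl12, Rpl3 and the low-FPKM core genes.

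Replicate numbers come from the titles. For HA and LP, libraries with the same number deviated together, with correlations across genes of 0.256, 0.144 and 0.486, all over the limit of 0.1 set for pairing, so the block was read as a pairing there. Differently numbered libraries also reached 0.251 (HA replicate 2 with LP replicate 1) and 0.182 (HA replicate 1 with LP replicate 2), above the lowest same-number value, so the pairing is weak. HA and LP libraries share no title code. The highest value, 0.486, joins the libraries with the highest summed meningeal markers, HA replicate 3 (1089 CPM) and LP replicate 3 (516 CPM). The part of tissue content in these correlations was not tested. Fitting the number as a block changed no member's call in that comparison.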

Additional observations from a re-analysis of the deposited data

How the results depend on the processing

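In no setting run were more than 2 members called in a comparison, and limma-voom called 0 in each. In HP against LP the count of 0 became 1 in DESeq2 (Rps7), 2 with no filter (Rps7, adjusted p = 0.00677, and Rps27a), and 1 without LP replicate 3 and HA replicate 3 together (Rps7, log2 fold change -0.31, adjusted p = 0.0337), and it lay between 0 and 1 when 1 library was left out. In HA against HP it became 1 in DESeq2 and stayed at 0 when 1 library was left out. In HA against LP it became 1 with no filter (Rps27a) and lay between 0 and 1 when 1 library was left out. Over all genes, the calls in HP against LP numbered 2 in edgeR and 32 in DESeq2, 53 with no filter and 37 without LP replicate 3 and HA replicate 3; those in HA against LP numbered 0, 27, 41 and 23, and those in HA against HP numbered 2, 8, 5 and 10, in the same settings.

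Rps7 had a log2 fold change in HP against LP of -0.29 in DESeq2 and with no filter, and of -0.31 to -0.26 when 1 library was left out; in HA against HP it was 0.23 in DESeq2, 0.21 to 0.25 with 1 library left out, -0.0029 with matched pseudogenes added and -0.0084 with all copies added. Gm6472 lost its call in HP against LP with library totals (0.58, adjusted p = 0.0531), and in HA against HP with those groups alone (-0.61, adjusted p = 0.0681) or with the title code as a term (-0.61, adjusted p = 0.0896). With 1 library left out it ran from 0.53 to 0.62 in HP against LP, -0.65 to -0.55 in HA against HP and -0.068 to 0.0058 in HA against LP, where it changed sign without HA replicate 1 (0.0037) and LP replicate 2 (0.0058). The sum of both in HA against HP ran from -0.029 to 0.018 with 1 library left out, and changed sign in DESeq2 (-0.0001), with TMM factors made without the members (-0.0024), with length offsets (-0.039) and without HA replicate 2 (-0.0059), HP replicate 3 (-0.029), LP replicate 1 (-0.0031) or LP replicate 2 (-0.0032). Rpl30 in HP against LP changed sign with matched pseudogenes (0.0020) or all copies (0.0012) added. The members' median in HA against HP was 0.017 with length offsets and 0.030 to 0.079 with 1 library left out. In HA against LP it was 0.0060 with length offsets. The cause of these changes was not tested, apart from the added copies.

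With the replicate block, 0 members were called in any comparison, and Rps7 in HP against LP was -0.29 (adjusted p = 0.160). The block changed no call of Gm6472 and moved the calls over all genes in HP against LP to 4. Same-numbered libraries had correlations of 0.137, -0.028 and 0.159 in HP and LP and of 0.082, 0.0040 and 0.118 in HA and HP, under the limit of 0.1 for at least 1 number in each, so these were not taken as paired, although HA and HP libraries of the same number also share a title code.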
